A study of Mus musculus with 11 samples.

Results

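Expression was compared for 10 genes of scavenger and endocytic function in liver sinusoidal ECs, 9 for receptors and 1 for a secreted enzyme: Stab1, Stab2, Mrc1, Clec4g, Fcgr2b, Lyve1, Cd36, Scarb1, Lrp1 and Dnase1l3. They were chosen by name for their known roles and make up 10 of the 29307 genes listed in the count table. All 10 passed the filter on low counts and were among the 12905 genes tested. RNA was sequenced from sorted liver ECs of 6 conventionally raised (CONV-R) and 5 germ-free (GF) mice, with 1 library per mouse. All were age-matched male C57BL/6J mice on the same sterilized diet. GF mice lived in sterile isolators and carried no microbiota, whereas CONV-R mice came from the same colonies and were kept specific-pathogen-free. The ECs were enriched on beads against CD146 and then sorted as CD31+ CD105+ CD146+ cells, and their RNA was amplified before sequencing. The paper reports fewer sorted ECs and less RNA from GF than from CONV-R livers, and a low viability of the sorted cells. Yield thus differed with the group and cannot be told apart from the microbiota here, and its part in the differences was not tested. The question was whether these genes differ in sinusoidal ECs of mice with and without a microbiota.

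Sinusoidal ECs line the blood channels of the liver. They lack a continuous basement membrane, are perforated by fenestrae, and clear macromolecules and small particles from portal blood. Uptake runs mostly through clathrin-coated pits into early endosomes, from which receptors return to the surface and cargo passes on to lysosomes. Stabilins and the mannose receptor take up matrix fragments and glycoproteins, the inhibitory Fcγ receptor takes up immune complexes, and class B scavenger receptors bind fatty acids and lipoproteins. Dnase1l3 encodes a secreted nuclease that degrades DNA in chromatin and is included because these cells are a known source of it.

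Libraries held 7922855 to 14669352 counts in CONV-R and 7242717 to 16164588 in GF mice. Of the CONV-R libraries, CONV-R 3 stood apart, with a Pearson r of log2 levels of 0.951 to 0.954 with the other 5, among which r was at most 0.980. Among GF libraries r was 0.946 to 0.971, lowest for GF 6 (0.946 to 0.955) and GF 5 (0.946 to 0.962). Genes of the sort were present in each library, and Pecam1 (CD31), Eng (CD105) and Mcam (CD146) did not pass edgeR's test (2 of the 3 at an unadjusted p under 0.05, median Log2FC 0.37). Without GF 5, 2 of the 3 passed as higher in GF, and without CONV-R 1, 1 did. The summed level of 12 further sinusoidal markers was 20269 to 24420 CPM (TMM-scaled counts relative to library size) in CONV-R and 17826 to 26199 CPM in GF, and 0 of the 12 passed edgeR's test (5 at an unadjusted p under 0.05). Without GF 5, 2 of the 12 passed as higher in GF, and without GF 4, 1 passed as lower. Of 12 Kupffer cell markers, 9 were higher in GF, beside 4.8% of all tested genes, with sums of 108 to 283 CPM in CONV-R and 271 to 1188 CPM in GF, the last in GF 6. These were Clec4f, Vsig4, Adgre1, Csf1r, Timd4, Cd163, C1qb, C1qc and Lyz2, with Log2FC of 1.31 to 2.10, and C1qa stayed at or below 1.43 CPM in either group mean. Without GF 6, 4 of the 12 passed, and without CONV-R 2, 4 or 5, 5 did. Of 9 tested markers of continuous capillary, arterial or venous endothelium, 4 were higher in GF, beside the same 4.8%, with sums of 891 to 1282 CPM against 1371 to 1970 CPM. Hepatocyte (Alb, Apob), stellate cell (Hgf, Ecm1), B cell (Ighm, Ms4a1) and lymphatic markers (Prox1, Mmrn1), each with its leading genes in brackets, had 0 genes that passed, with sums of at most 338 CPM in any library. At an unadjusted p under 0.05 there were 1 of 11 hepatocyte, 2 of 5 stellate cell, 3 of 6 B cell and 0 of 2 lymphatic markers tested, and the B cell markers summed to 13.7 to 33.8 CPM in CONV-R and 4.93 to 19.4 CPM in GF. Of the stellate cell list, Col1a1 and Lum were near 0, as were Pdpn and Ccl21a of the lymphatic list. The stellate cell markers together summed to 170 to 314 CPM in CONV-R and 292 to 338 CPM in GF. T or NK cell markers summed to at most 3.70 CPM.

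The promoter sequences of 3 genes are shown because these genes span the range of the results. Cd36 was the gene whose difference passed the test, Clec4g was an abundant gene without a detected difference, and Lrp1 was the least abundant. Each line gives the 250 bases before the RefSeq transcription start, on the gene's own strand, 5′ to 3′, in GRCm38.p6. The windows are chr5:17835897-17836146 for Cd36, chr8:3720652-3720901 for Clec4g and chr10:127621149-127621398 for Lrp1, all on the minus strand. Capitals mark a match to a motif that was searched.
Cd36: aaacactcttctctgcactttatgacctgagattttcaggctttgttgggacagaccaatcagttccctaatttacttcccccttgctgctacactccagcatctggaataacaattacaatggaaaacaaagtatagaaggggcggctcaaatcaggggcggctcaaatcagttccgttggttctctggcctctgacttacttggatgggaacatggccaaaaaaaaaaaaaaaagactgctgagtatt
Clec4g: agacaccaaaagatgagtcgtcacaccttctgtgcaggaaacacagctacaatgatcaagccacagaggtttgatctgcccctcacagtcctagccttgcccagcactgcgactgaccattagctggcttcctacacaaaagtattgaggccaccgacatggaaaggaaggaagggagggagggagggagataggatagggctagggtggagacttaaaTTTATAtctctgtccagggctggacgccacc
Lrp1: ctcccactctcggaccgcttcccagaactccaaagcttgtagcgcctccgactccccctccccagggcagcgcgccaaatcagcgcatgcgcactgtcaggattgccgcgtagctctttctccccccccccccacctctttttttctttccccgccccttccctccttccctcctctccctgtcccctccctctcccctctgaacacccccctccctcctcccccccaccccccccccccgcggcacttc
The Cd36 window held 43.2% G and C and 3 CpG, the Clec4g window 52.0% and 4, and the Lrp1 window 67.2% and 13. Over 32536 RefSeq promoters the medians were 52.4% and 6 CpG, so that Cd36 lay below and Lrp1 above both. Of the 10 genes, 7 had a promoter in the table used. These 7 were searched on both strands for a motif of GATA factors, AGATAA, found in 9.97% of all promoters, the AP-1 motif TGACTCA (in 4.45%), the E-box CACGTG (in 6.04%) and the TATA box, spelled TATAAA (in 12.3%). The search found 1 match, a TATA box on the opposite strand of Clec4g, 26 to 31 bases before the start. A match in these letters is not a binding site, and the absence of one holds for this window alone. Cd36 has 5 annotated starts spread over 53051 bases, Clec4g has 2 starts spread over 3098 bases and Lrp1 3 over 226 bases, so each window describes the bases before 1 of several starts.

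The 10 genes spread over a wide range of levels, which are compared between genes per kilobase of exon. In CONV-R mice, Dnase1l3 led with 1277 ± 168 CPM per kilobase of exon (SD, n = 6). Fcgr2b followed with 1135 ± 326, Clec4g with 1021 ± 173, Mrc1 with 964 ± 101 and Stab2 with 854 ± 88.8 CPM per kilobase. The ranges of neighbours in this leading set overlapped, so their order was not resolved. A gap then separated them from Lyve1 (278 ± 48.0), Cd36 (243 ± 15.2) and Stab1 (211 ± 35.6 CPM per kilobase), whose ranges also overlapped in turn. Scarb1 followed with 15.8 ± 1.81 and Lrp1 with 0.770 ± 0.431 CPM per kilobase, each clear of its neighbours. Over all libraries, genes were ranked by level per kilobase among the tested genes with an annotated exon length. Dnase1l3 ranked 5, Fcgr2b 7, Mrc1 8, Clec4g 9 and Stab2 13. At the other end, Scarb1 ranked 2244 and Lrp1 10068.

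**Figure D1:**
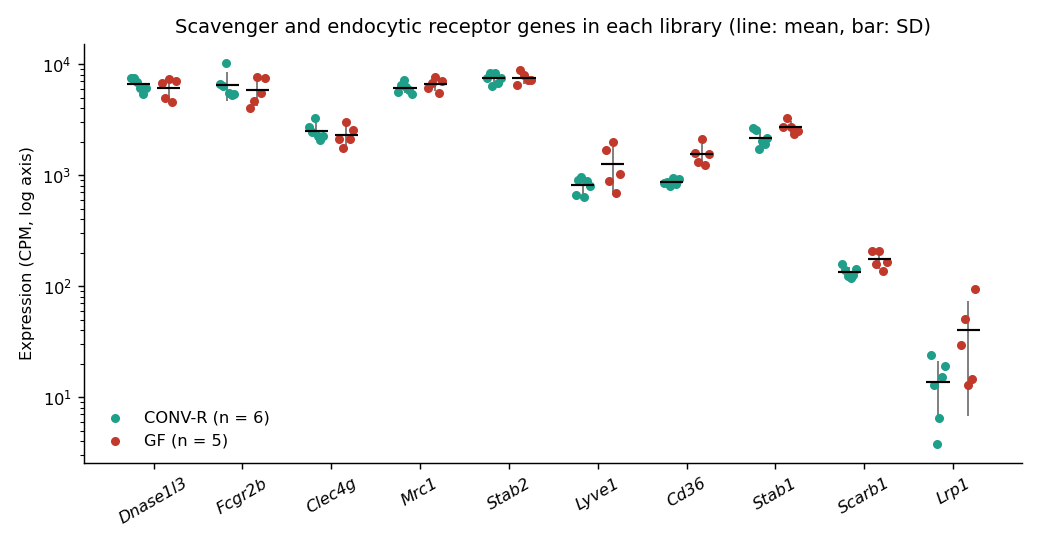
Expression of the 10 genes in each library, in CPM on a log axis, with CONV-R (n = 6) and GF (n = 5) libraries as points, the group mean as a line and the SD as a bar. Cd36 is the gene whose points do not overlap, at 801 to 943 CPM in CONV-R and 1245 to 2118 CPM in GF, and Lrp1 lies lowest with the widest relative spread.

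In GF mice the same 5 genes led, from Dnase1l3 (1193 ± 257 CPM per kilobase, SD, n = 5) to Stab2 (859 ± 100). Cd36 (436 ± 95.2) stood level with Lyve1 (431 ± 190 CPM per kilobase) and both overlapped in range. All GF values of Cd36, from 347 CPM per kilobase, lay above those of Stab1 (267 ± 34.5, up to 322), while the range of Lyve1 overlapped that of Stab1. Together the 10 genes took 3.00% to 3.86% of all counts in CONV-R libraries (median 3.37%) and 3.03% to 3.86% in GF libraries (median 3.24%). The share taken by these 10 genes, Dnase1l3 included, thus overlapped between the groups.

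Cd36 was higher in GF ECs, and no other of the 10 genes passed the test. That is 1 of 10 higher and 0 of 10 lower, where 7.48% of all tested genes passed in either direction (4.8% higher, 2.67% lower), by the quasi-likelihood test of edgeR, Benjamini-Hochberg adjusted across the 12905 genes, at a threshold of 0.05. Every adjusted p below comes from this test unless another is named. In 1 of 10 genes, Cd36, the groups did not overlap, against 5.59% of all tested genes (3.22% higher, 2.37% lower). The median Log2FC (GF minus CONV-R) of the 10 genes was 0.22, and that of all tested genes was -0.006. Both shares for the 10 genes rest on a single gene. All tested genes spanned a Log2FC of -0.76 (5th percentile) to 0.90 (95th percentile), and 9 of the 10 genes lay inside that range.

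**Figure D2:**
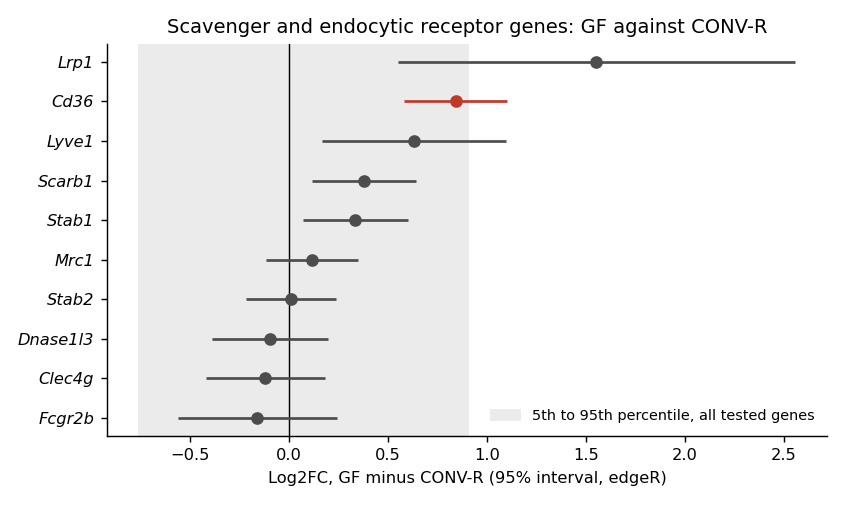
Log2FC of the 10 genes (GF minus CONV-R) with 95% intervals from edgeR, and in grey the 5th to 95th percentile of all tested genes. Cd36, in red, passed the test at 0.84, and Lrp1 has the largest estimate at 1.55 with the widest interval.

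Cd36 encodes a class B scavenger receptor that binds long-chain fatty acids, oxidized lipoproteins and thrombospondin. It is encoded at chr5:17781690-17888801 (GRCm38, minus strand). GF 1, 2, 4, 5 and 6 had 1580, 1324, 2118, 1245 and 1555 CPM, and the CONV-R libraries ran from 801 through a median of 861 to 943 CPM. All 5 GF libraries lay above all 6 CONV-R libraries, with the lowest GF value in GF 5 and the highest in GF 4. The means were 1564 ± 342 CPM (SD, n = 5) in GF and 873 ± 54.6 CPM (n = 6) in CONV-R. Log2FC was 0.84 ± 0.12 (SE), a 1.79-fold higher level (95% interval 1.5 to 2.15), with an edgeR adjusted p of 0.000514. The coefficient of variation was 21.8% in GF and 6.25% in CONV-R. Leaving out each library in turn gave a Log2FC of 0.71 to 0.91, and over all 21 alternatives the adjusted p was at most 0.00195. Over 11 libraries with group means removed, the r of Cd36 with the summed Kupffer markers was -0.106 (two-sided permutation p = 0.797) and with the summed markers of other endothelium -0.230 (permutation p = 0.552). Both signs rested on GF 4, without which r was 0.350 and 0.094. In bulk libraries such as these, more transcript per cell and more cells that express a gene cannot be told apart.

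Scarb1 encodes the other class B scavenger receptor of the set, which takes up cholesterol esters from high-density lipoprotein. Its values were 206, 157, 206, 138 and 166 CPM in GF 1, 2, 4, 5 and 6, and 119 to 159 CPM with a median of 132 CPM in CONV-R. The groups overlapped, with 3 of 5 GF libraries above all CONV-R libraries. Log2FC was 0.38 ± 0.12 (SE; 95% interval 0.12 to 0.64), and the adjusted p of 0.0746 from edgeR missed the threshold. It passed without CONV-R 1 (adjusted p = 0.0471, edgeR) or without GF 5 (0.0285). Scarb1 lies at chr5:125277087-125341094 on the minus strand.

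The stabilins are large multidomain receptors that bind hyaluronan, advanced glycation end products, oxidized lipoproteins and apoptotic cells. Stab2 was the more abundant of the pair per kilobase in every library, and its group means were close. GF 1, 2, 4, 5 and 6 had 6489, 8794, 7948, 7204 and 7180 CPM, and CONV-R ranged from 6384 through a median of 7539 to 8334 CPM. The groups overlapped almost fully, with only GF 2 above the CONV-R range. Stab2 averaged 7523 ± 878 CPM (SD, n = 5) in GF and 7482 ± 778 CPM (n = 6) in CONV-R, a Log2FC of 0.01 ± 0.11 (SE; edgeR adjusted p = 0.979). The 95% interval of the fold ran from 0.859 to 1.18, so a difference of the size seen for Cd36 lay outside it. Without single libraries the estimate lay on either side of 0, between -0.05 and 0.06.

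Stab1 had 2745, 3312, 2747, 2378 and 2529 CPM in GF 1, 2, 4, 5 and 6, against 1729 to 2668 CPM with a median of 2099 CPM in CONV-R. Of the GF libraries, 3 lay above all CONV-R libraries and the others within their range. The Log2FC of Stab1 was 0.33 ± 0.12 (SE; 95% interval 0.07 to 0.60), with an edgeR adjusted p of 0.115. Stab1 did not pass under any of the 21 alternatives. Stab1 is at chr14:31139013-31168641 and Stab2 at chr10:86841198-87008025, both on the minus strand.

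Stab2 spans antisense genes. Gm16268 overlaps 141 exonic bases of Stab2, where reads of both genes cannot be told apart if counting ignored the strand, which is not given in the sources used here. It held 12892 counts, or 1.38% of those of Stab2. Gm16280, within the span of Stab2 and without a shared exonic base, held 31630 counts, or 3.37%. The levels of both followed Stab2 (r = 0.608 and 0.709 over 11 libraries, group means removed), and neither passed the test (Log2FC -0.24 and -0.22, edgeR adjusted p = 0.298 and 0.506). Opposite-strand overlaps of 112 to 155 exonic bases join Stab1 to Nt5dc2, Clec4g to Gm16553 and Fcgr2b to Gm38204, which held 218 to 603 counts over all libraries.

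Mrc1 and Clec4g encode C-type lectins. The mannose receptor Mrc1 clears mannose-terminated glycoproteins, lysosomal enzymes and collagen chains, and Clec4g (LSECtin) binds glycans and is a marker of liver sinusoidal ECs. Mrc1 had 6166, 6798, 7730, 5470 and 7097 CPM in GF 1, 2, 4, 5 and 6, and 5418 to 7180 CPM (median 6018) in CONV-R. Clec4g had 2104, 1764, 3030, 2113 and 2541 CPM in the same GF libraries, and 2100 to 3275 CPM (median 2360) in CONV-R. Both genes overlapped between groups, with GF 4 highest for either lectin in GF and CONV-R 3 highest in CONV-R. The Log2FC of Mrc1 was 0.11 ± 0.11 (SE; 95% interval -0.12 to 0.35; edgeR adjusted p = 0.581). That of Clec4g was -0.12 ± 0.14 (95% interval -0.42 to 0.18; edgeR adjusted p = 0.664). Mrc1 is at chr2:14229392-14332057 on the plus strand and Clec4g at chr8:3707064-3720651 on the minus strand.

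Fcgr2b encodes the inhibitory low-affinity receptor for IgG, which in sinusoidal ECs clears small immune complexes. Its GF values were 4060, 4656, 7611, 5457 and 7596 CPM in GF 1, 2, 4, 5 and 6. CONV-R libraries 1, 2, 4, 5 and 6 held 6600, 6389, 5463, 5323 and 5383 CPM, and CONV-R 3 held 10264 CPM, far above them. Groups overlapped, with a Log2FC of -0.16 ± 0.19 (SE; 95% interval -0.56 to 0.24; edgeR adjusted p = 0.667). The sign rested on CONV-R 3, since without it Log2FC was 0.01 (edgeR adjusted p = 0.981). Fcgr2b lies at chr1:170958617-170976547 on the minus strand.

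Lyve1 encodes a hyaluronan receptor known from lymphatic vessels and also carried by sinusoidal ECs. GF 1 and GF 4 stood high, with 1688 and 1986 CPM, whereas GF 2, 5 and 6 had 885, 687 and 1037 CPM. CONV-R libraries ranged from 632 through a median of 850 to 968 CPM. So 3 of 5 GF libraries lay above all CONV-R libraries and the others within their range. The Log2FC of Lyve1 was 0.63 ± 0.22 (SE; 95% interval 0.17 to 1.09), and its edgeR adjusted p of 0.0932 missed the threshold. It fell to 0.40 without GF 4 (adjusted p = 0.263, edgeR) and stood at 0.79 without GF 5 (0.0209). Lymphatic markers summed to 7.24 to 13.7 CPM in CONV-R and 9.22 to 14.6 CPM in GF. Lyve1 lies at chr7:110850607-110863239 on the minus strand.

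Lrp1 encodes a very large endocytic receptor, which takes up chylomicron remnants, protease complexes and many other ligands. It was the least abundant of the 10 genes, with 1049 counts over the 6 CONV-R and 1922 over the 5 GF libraries. GF 1, 2, 4, 5 and 6 had 29.4, 51.2, 13, 14.5 and 94.0 CPM, and CONV-R 1 to 6 had 24.1, 12.9, 3.81, 6.51, 15.3 and 19.2 CPM. GF 6 and GF 2 were highest, and 3 of 5 GF libraries lay above all CONV-R libraries, while GF 4 and GF 5 fell within the CONV-R range. Log2FC was 1.55 ± 0.48 (SE), a fold of 2.93 with a 95% interval of 1.46 to 5.87, and the adjusted p of 0.0557 from edgeR missed the threshold. Leaving out GF 6 lowered the estimate to 0.98 (edgeR adjusted p = 0.226). Leaving out CONV-R 1, GF 4 or GF 5 instead brought it past the threshold (edgeR adjusted p = 0.0382, 0.0282 and 0.0279). The gene lies at chr10:127538161-127621148 on the minus strand.

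The level of Lrp1 followed the Kupffer cell markers. Macrophages are known to express Lrp1. With group means removed, the r of log2 Lrp1 with the log2 summed level of the 12 markers was 0.844 over 11 libraries (two-sided permutation p = 0.00111; adjusted p = 0.0167 over 30 relations). Spearman's rho was 0.836 (permutation p = 0.00480; adjusted p = 0.0720). Within the 6 CONV-R libraries r was 0.726, and without CONV-R 1 and GF 6, the libraries farthest out in the markers, it was 0.728. Each of the 12 markers correlated positively with Lrp1, from 0.404 for C1qa to 0.951 for Clec4f. Among the 8284 tested genes averaging at least 10 CPM, Clec4f was the most alike to Lrp1. Clec4f, a lectin of Kupffer cells, is itself 1 of the 12 markers, so this is the same r as above. The part of Kupffer cell RNA in the level of Lrp1 was not tested.

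Stab2 moved against the markers of continuous capillary, arterial or venous endothelium. Over the 11 libraries, with group means removed, r was -0.931 (two-sided permutation p = 0.000475; adjusted p = 0.0142 over the 30 relations) and rho was -0.909 (permutation p = 0.000984; adjusted p = 0.0295). Within the 6 CONV-R libraries r was -0.977, and without CONV-R 3 and GF 1, the farthest out in the markers, it was -0.874. All 9 tested markers correlated negatively with Stab2, from -0.120 for Ly6c1 to -0.865 for Ly6a. Ly6a (Sca-1), a surface antigen of stem cells and many ECs, averaged 283 ± 69.8 CPM in CONV-R (SD, n = 6) and 552 ± 172 CPM in GF (n = 5; Log2FC 0.97 ± 0.20, edgeR adjusted p = 0.00610). The other genes of the set that passed were Cd34 (Log2FC 1.2), Ly6c1 (3.15) and Vcam1 (0.90), with edgeR adjusted p of 0.00183, 0.000122 and 0.000661. The summed markers did not overlap between groups, while Stab2 did. Apart from Stab2 with other endothelium and Lrp1 with Kupffer cells, none of the 30 relations of a gene with Kupffer markers, other endothelium or library total had an adjusted p under 0.05. The part of other ECs in the level of Stab2 was not tested.

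**Figure D3:**
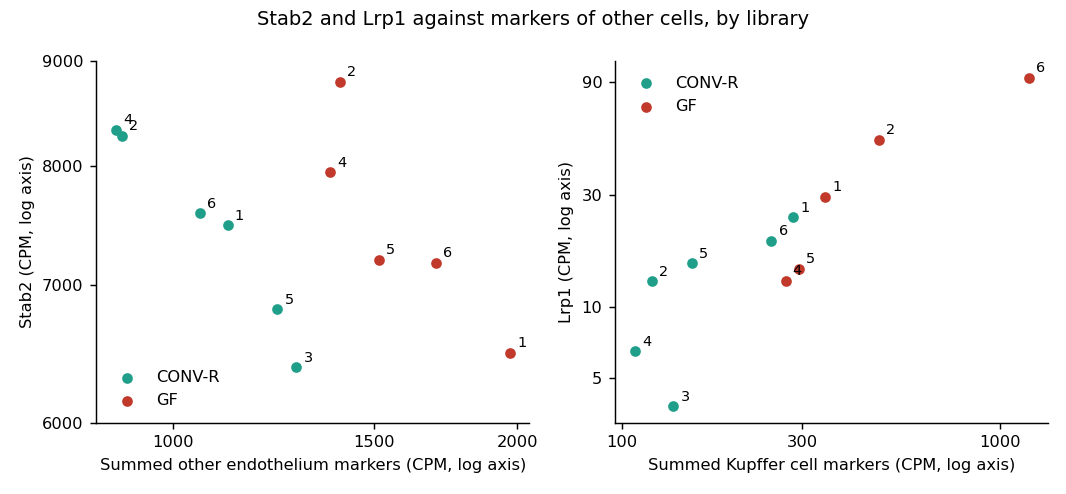
Stab2 against the summed markers of continuous capillary, arterial or venous endothelium (left) and Lrp1 against the summed Kupffer cell markers (right), in CPM on log axes, 1 point per library with its replicate number. Within either group Stab2 is lower where the markers are higher (r = -0.931, group means removed), and Lrp1 is higher where Kupffer markers are higher (r = 0.844), with GF 6 at the top right.

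Dnase1l3 encodes the secreted nuclease of the set and had the highest mean per kilobase in either group, with a range that overlapped those of the next genes. GF 1, 2, 4, 5 and 6 had 6742, 4932, 7397, 4526 and 7138 CPM, and CONV-R ranged from 5344 through a median of 6509 to 7518 CPM. GF 2 and GF 5 lay below all CONV-R libraries, and no GF library lay above them. Its Log2FC was -0.10 ± 0.14 (SE; 95% interval -0.39 to 0.20), with an edgeR adjusted p of 0.730. Dnase1l3 is at chr14:7964533-7994573 on the minus strand.

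Some of the genes moved together from mouse to mouse within the groups. These values describe 11 libraries that share the sort, the amplification and differences in depth, and carry no test. The closest pair was Clec4g and Fcgr2b, with r = 0.892 (0.842 to 0.940 on leaving out each library). Scarb1 and Dnase1l3 followed with r = 0.757, Clec4g and Dnase1l3 with 0.704, and Lyve1 and Cd36 with 0.694. The Lyve1 and Cd36 pair fell to 0.419 without GF 4, the library highest in both. The stabilins reached r = 0.643, and the lowest value, -0.382, joined Clec4g to Lrp1.

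**Figure D4:**
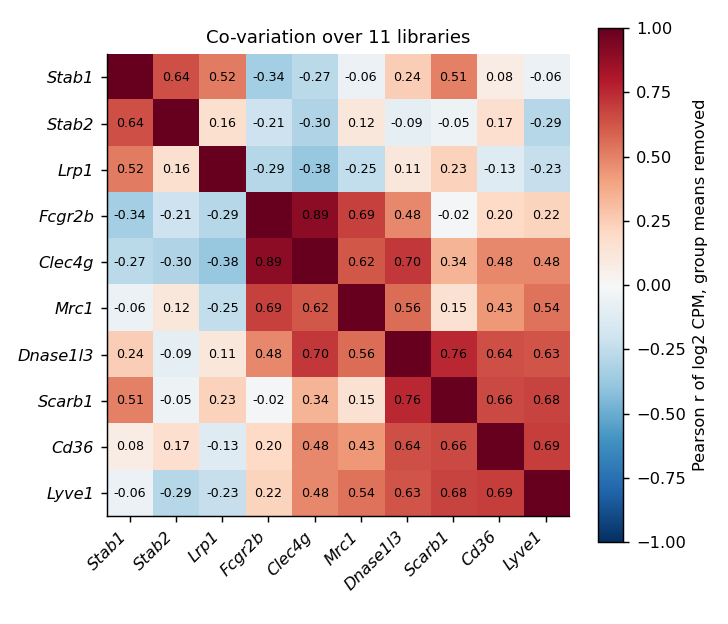
Pearson r of log2 CPM between the 10 genes over 11 libraries, with each group's mean removed, red for positive and blue for negative values. The highest value is that of Clec4g with Fcgr2b (0.892) and the lowest that of Clec4g with Lrp1 (-0.382).

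Among the 8284 genes compared, those most alike to each gene over the 11 libraries had r between 0.894 and 0.990. Clec4g was closest to Igfbp7 (0.990), a secreted binding protein of ECs, and Scpep1 (0.972), and Dnase1l3 to Ywhab (0.986) and Ccdc80 (0.968). Fcgr2b was closest to Gpr155 (0.970) and Tlr2 (0.970), a receptor for bacterial lipoproteins. Scarb1 lay nearest Eef2 (0.965) and the lysosomal protease Ctsa (0.965), and Stab2 nearest Tpp2 (0.962) and Tstd2 (0.894). For Stab1 these were Sec24d (0.947), a coat protein of vesicles leaving the endoplasmic reticulum, and Dnmbp (0.944). For Cd36 they were Ddx10 (0.928) and Btbd7 (0.924), for Mrc1 Etv1 (0.914) and Atrn (0.912), for Lyve1 Pes1 (0.907) and Spop (0.898), and for Lrp1 Clec4f (0.951) and Pcdhgb5 (0.938). With 11 libraries and this many genes, high values arise in any list, and they are given as a description.

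Of 58 other endocytic receptors, 57 were listed and 40 tested, and 28 of these did not pass edgeR's test. The test called 10 higher and 2 lower in GF, beside 4.8% and 2.67% of all tested genes, with a median Log2FC of 0.15. Without GF 6 these were 7 and 2. Insr, the insulin receptor, had 1461, 785, 478, 548 and 788 CPM in GF 1, 2, 4, 5 and 6 against 229 to 440 CPM in CONV-R, a Log2FC of 1.27 ± 0.23 (SE; edgeR adjusted p = 0.00266). Sort1, a sorting receptor of the Golgi and endosomes, had a Log2FC of 0.94 (adjusted p = 0.00173, edgeR), and the C-type lectins Clec2d and Clec1a had 0.93 and 0.62 (0.000532 and 0.00160). Cd300lg, a mucin-like endocytic receptor of capillaries, had a Log2FC of 0.55 (edgeR adjusted p = 0.00588). The groups did not overlap for any of these 5 genes.

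Pla2r1, a relative of the mannose receptor, was lower, at 257 ± 42.5 CPM in GF (SD, n = 5) and 372 ± 39.4 CPM in CONV-R (n = 6; Log2FC -0.54, edgeR adjusted p = 0.0126). The 5 higher receptors named above and Pla2r1 passed on leaving out each library in turn.

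Of 59 listed genes of clathrin uptake and endosome traffic, 56 were tested. The test called 1 higher and 2 lower, beside 4.8% and 2.67% of all tested genes, with a median Log2FC of 0.09. With the replicate block 5 passed, and with DESeq2 7. Dab2, a clathrin adaptor for lipoprotein receptors and other cargo, had 1072, 1023, 1599, 1301 and 1208 CPM in GF 1, 2, 4, 5 and 6 against 1610 to 1981 CPM in CONV-R. The groups did not overlap (Log2FC -0.60 ± 0.12, SE; edgeR adjusted p = 0.00455). Ehd2, a membrane-bending ATPase of caveolae, was higher with a Log2FC of 1.69 (edgeR adjusted p = 0.0103). Itsn1, a scaffold of clathrin pits, was lower with -0.42 (edgeR adjusted p = 0.0233) and missed the threshold without CONV-R 6, GF 4 or GF 6 (without GF 6, adjusted p = 0.0635).

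Genes that handle hyaluronan, a ligand of the stabilins and of Lyve1, had 4 of 11 tested genes higher and 0 lower, beside 4.8% and 2.67% of all tested genes, with a median Log2FC of 0.27. Tmem2, a cell-surface hyaluronidase, had 2236, 2357, 1954, 1734 and 1916 CPM in GF 1, 2, 4, 5 and 6 and 1079 to 1424 CPM in CONV-R. The groups were clear of each other (Log2FC 0.73 ± 0.11, SE; edgeR adjusted p = 0.000532). Cd44, the hyaluronan receptor of leukocytes and other cells, had a Log2FC of 1.81 (edgeR adjusted p = 0.0164), and the hyaluronidase Hyal2 0.49 (0.0353). Hyal2 missed the threshold in 8 of the 11 fits that left out 1 library. Of the 4 genes, Tmem2 alone passed without GF 6, where Cd44 had an edgeR adjusted p of 0.0687. The list had 2 genes past the threshold without CONV-R 4, CONV-R 5 or GF 4, and 5 without CONV-R 1.

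Of 11 genes for Fcγ receptors and their signalling partners, all tested, 2 were higher and 1 lower, beside 4.8% and 2.67% of all tested genes, with a median Log2FC of 0.40. Fcgr4 and Fcgr3, activating receptors of macrophages and other leukocytes, averaged 9.19 ± 7.65 and 8.12 ± 5.6 CPM in GF (SD, n = 5) against 1.88 ± 0.709 and 2.46 ± 0.975 CPM in CONV-R (n = 6). Their Log2FC was 2.26 and 1.69, with edgeR adjusted p of 0.00579 and 0.0148. Without GF 6, the library highest in Kupffer markers, Fcgr3 had a Log2FC of 1.18 and an edgeR adjusted p of 0.0628, and Fcgr4 a Log2FC of 1.65 (0.0228). Fyn, a Src-family kinase, was lower with a Log2FC of -0.46 (edgeR adjusted p = 0.0243) and missed the threshold without CONV-R 4, GF 2 or GF 6. The part of Kupffer cell RNA in these values was not tested.

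Among 10 other deoxyribonucleases, 7 were tested and 0 passed edgeR's test (1 at an unadjusted p under 0.05), beside 7.48% of all tested genes. DESeq2 called 2 of them, and 1527 of all genes. The median Log2FC was 0.01.

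**Figure D5:**
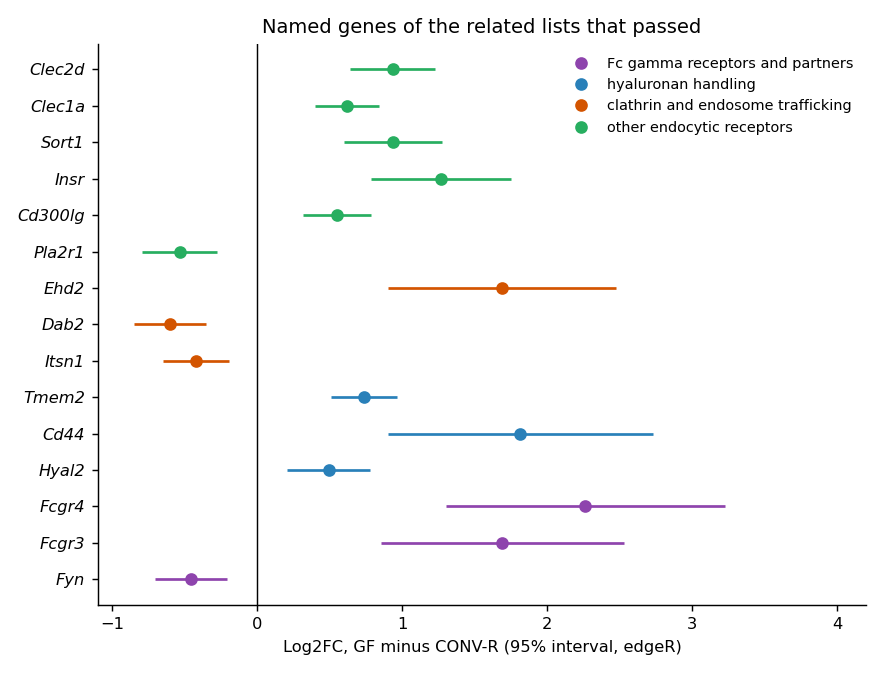
Log2FC (GF minus CONV-R) with 95% intervals from edgeR for the genes named in the text that passed in 4 related lists, coloured by list. Insr, Sort1, Clec2d and Clec1a lie to the right, Dab2, at -0.60, lies farthest left, and Fcgr4 lies farthest right at 2.26 (1.65 without GF 6, where Ehd2 has 1.70).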

How the data were processed

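RNA of sorted liver ECs was sequenced in 6 CONV-R and 5 GF mice, grouped by the labels. The authors deposited raw counts per gene, made by trimming, mapping to GRCm38 (mm10) with STAR and counting with featureCounts. The annotation release and strand setting are not given in the sources used here. The authors also deposited normalized values on a log2 scale, used here in 1 alternative. A further GF library was left out by the authors for few mapped reads.

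Counts were analysed in R 4.3.3 with edgeR 4.0.16: filterByExpr, TMM scaling and the quasi-likelihood test, with no covariate, Benjamini-Hochberg adjustment over 12905 genes and a threshold of 0.05. CPM use TMM-scaled totals, and lengths are merged exons of GENCODE M21. SE is Log2FC divided by the root of the F statistic, and intervals are at 95%. Correlations used log2 CPM with a prior count of 2 and group means removed. Their 86400 permutations within groups gave p for 30 relations, adjusted together by Benjamini-Hochberg. DESeq2 1.42.0, limma 3.58.1, other filters and scalings, a draw down to 7242717 counts and left-out libraries were alternatives. The edgeR and voom steps were tested on simulated data. Totals of 7242717 to 16164588 counts leave counting error small for all but Lrp1 and the rarest listed genes.

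The 10 genes, the related lists and the marker lists were chosen with earlier results of these data known. Named are the 10 genes, at most 5 called genes per list and direction, the sorting markers, the leading or called markers, and for each gene the 2 most alike genes of at least 10 CPM. Cases named beyond this, such as genes overlapping the 10, were chosen after their values were seen. Some genes of these lists are not reported here. Promoter sequences are from RefSeq.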

Additional observations from a re-analysis of the deposited data

Results flagged for a closer look

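Of 40 sets of values tested for a library far from the rest of its group (5 or 6 libraries, Dixon's criterion at 95%), 2 met it. Chance flags about 1 set in 20. Fcgr2b reached 10264 CPM in CONV-R 3, where the next highest CONV-R library had 6600 CPM, a gap of 0.742 of the group's range. This is the library that stood apart in the correlation of all genes. The summed Kupffer cell markers reached 1188 CPM in GF 6, where the next highest GF library had 479 CPM, a gap of 0.773 of the range. Of the 10 genes, Lrp1 was also highest in GF 6, at 94.0 CPM.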

How the results depend on the processing

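Cd36 passed under all 21 alternatives, and Stab1, Stab2, Mrc1, Clec4g, Fcgr2b and Dnase1l3 passed under none. The Log2FC of Stab2 turned to -0.016 with no filter on low counts, -0.0392 with the replicate block and -0.0355 over the same 10 libraries without the block, and leaving out 1 library gave -0.0535 to 0.0568. That of Fcgr2b turned to 0.0092 over these 10 libraries, which lack CONV-R 3 (-0.2733 to 0.0092 on leaving out 1 library). With no filter, Lyve1 (0.62) and Lrp1 (1.52) passed, and with the block Lrp1 did (1.12). The causes were not tested. Without 1 library Lyve1 ranged from 0.40 to 0.79, Scarb1 from 0.31 to 0.45 and Lrp1 from 0.98 to 1.79, on both sides of the threshold. The count of the 10 genes that passed was 3 with no filter, 2 with the block and 1 to 4 without 1 library. Of all genes, 965 passed in the main test and 1527 with DESeq2 (598 lower, against 345). Without 1 library there were 622 to 1260 (413 to 779 higher, 206 to 481 lower), with 622 without GF 6. Genes lower in GF numbered 225 without CONV-R 2, 209 without CONV-R 4 or GF 6, and 206 without CONV-R 5. DESeq2 called 7 trafficking genes and 2 deoxyribonucleases, the block 5 trafficking genes, no filter 1 deoxyribonuclease, and a minimum of 10 counts in every library 1 Fcγ gene. Without 1 library the counts were 2 to 5 for trafficking, 1 to 5 for hyaluronan, 1 to 3 for Fcγ genes and 0 to 2 for deoxyribonucleases.

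Same-numbered libraries deviated together with r of 0.201, 0.048, -0.014, 0.024 and 0.094 for numbers 1, 2, 4, 5 and 6. These values are low, but they cannot settle whether replicate numbers pair the mice, since a weak pairing could leave low values too. Of the CONV-R libraries with a namesake, replicate 1 alone correlated best with its own number. Depth limits Lrp1 and the rare list genes most.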

Other observations

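None of the relations of the 10 genes with the library total had an adjusted p under 0.05 over 30 relations. With group means removed, r over 11 libraries was 0.691 for Scarb1 (two-sided permutation p = 0.0413; adjusted p = 0.325), -0.643 for Fcgr2b (permutation p = 0.0511) and 0.590 for Stab1 (permutation p = 0.0541). For Cd36 it was 0.413 (permutation p = 0.362). Without CONV-R 3 and GF 1, the libraries farthest from the median total, r was 0.608 for Scarb1, 0.112 for Fcgr2b and 0.666 for Stab1, so the value for Fcgr2b rests on these libraries.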
